A study of Homo sapiens with 6 samples.

Results

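Heat-shock chaperones are the proteins that fold newly made polypeptides and refold damaged ones in the cytosol and in mitochondria. The genes described here are 41 named symbols: the heat-shock transcription factors HSF1 and HSF2, the cytosolic HSP90 genes with their cochaperones, the HSP70 family with its J-domain and nucleotide-exchange partners, the small heat-shock proteins, the mitochondrial chaperones, and 4 subunits of the cytosolic chaperonin. They were taken by symbol, and all 41 were found among the 63009 genes read from the deposited table. Where a symbol had several rows, the row with the highest mean level was used.

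The cells were IMR90, a human fibroblast line, carrying a stable tamoxifen-activated RasV12 transgene (ERRAS cells), so the control libraries came from transgene carriers too. There were 3 libraries from uninduced control cells and 3 from cells in which RasV12 had been induced for 4 days, with 100 nM tamoxifen by the sample labels (the study's methods state the dose of 4-hydroxytamoxifen in another unit). Both groups were arrested in mitosis with 1 µM DME (Dimethylenastron), an inhibitor of the spindle motor Eg5, and the detached cells were collected at a mitotic index above 90% for poly(A) RNA sequencing. The transgene was introduced by retrovirus into a pool of cells grown under G418, and the experiment was repeated independently; the table shows groups and numbers but not which numbered library came from which sample. In the study's construct RasV12 is joined to the ligand-binding domain of the estrogen receptor, and control cells received no tamoxifen. No group received tamoxifen without the transgene, so effects of tamoxifen and of Ras cannot be told apart. Every difference below is therefore one between mitotic cells with 4 days of tamoxifen and induced Ras and mitotic cells with neither.

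Chaperones work as a relay. HSP70 proteins bind exposed hydrophobic stretches of a client, J-domain proteins deliver the client and trigger ATP hydrolysis, and nucleotide exchange factors such as HSP110 and BAG proteins release it, after which HSP90 or the ring-shaped chaperonins may complete folding. Small heat-shock proteins hold unfolded clients without ATP. On proteotoxic stress HSF1 forms trimers that bind inverted repeats of the pentamer nGAAn, the heat-shock element, in the promoters of many of these genes, of which the inducible HSPA1A and HSPA1B are the classical examples.

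Promoter sequence was examined for the letters of this element. RefSeq gave promoters, running from 250 bases before to 50 bases after the start, for 37 of the 41 genes (51 promoters of 35116 in the table, GRCh38.p14), and each of the 51 sequences was found exactly once in GRCh37, the build used for coordinates here. CRYAB, HSF1, HSPA14 and HSPB2 had no entry. The heat-shock element of 2 units was searched on both strands as GAANNTTC or TTCNNGAA, the element of 3 units as the first of these followed by NNGAA or the second followed by NNTTC, so that it contains 2 overlapping elements of 2 units, and the AP-1 site as TGANTCA. An element of 2 units was in 41.2% of the 51 promoters, against 13.5% of all promoters in the table, and one of 3 units in 13.7%, against 0.49%. The AP-1 letters were in 3.92% of the 51 promoters and in 7.71% of all.

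The promoters of 5 genes are printed, as examples of a gene that rose, one that fell and 3 that were not altered, with and without the element, 5′ to 3′ on the gene's strand, with elements of 2 units and their overlaps in capitals. HSPH1, a nucleotide exchange factor of the HSP110 family with the largest rise, had no element in its promoter (chr13:31736526-31736775, minus strand). HSPB6, a small heat-shock protein whose transcripts fell, had 2 elements (chr19:36247935-36248180, minus strand, inside the annotated bounds of the gene). HSPA1A, the stress-inducible HSP70, had 1 element (chr6:31783070-31783319, plus strand), and HSP90AA1, the inducible cytosolic HSP90, had 3, of which a pair formed an element of 3 units (chr14:102553382-102553631, minus strand, inside an intron of longer HSP90AA1 transcripts). CHORDC1, an HSP90 cochaperone, had 6, the most of any of these genes (chr11:89956246-89956467, minus strand). The stretch before its start overlaps an exon of another annotated gene. For HSPB6 and CHORDC1 the last 4 and 28 bases before the start are annotated as untranslated region and are not shown, which leaves out the CHORDC1 element nearest the start.
HSPH1: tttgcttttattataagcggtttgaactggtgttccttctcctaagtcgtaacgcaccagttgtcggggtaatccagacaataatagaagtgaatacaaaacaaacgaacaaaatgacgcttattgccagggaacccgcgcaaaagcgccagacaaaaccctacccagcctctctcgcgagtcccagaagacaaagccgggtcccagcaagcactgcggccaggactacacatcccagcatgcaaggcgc
HSPB6: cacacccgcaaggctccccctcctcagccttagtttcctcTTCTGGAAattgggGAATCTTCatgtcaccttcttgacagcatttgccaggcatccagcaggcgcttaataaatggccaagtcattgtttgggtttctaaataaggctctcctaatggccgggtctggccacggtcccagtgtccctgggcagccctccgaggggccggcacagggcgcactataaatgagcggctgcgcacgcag
HSPA1A: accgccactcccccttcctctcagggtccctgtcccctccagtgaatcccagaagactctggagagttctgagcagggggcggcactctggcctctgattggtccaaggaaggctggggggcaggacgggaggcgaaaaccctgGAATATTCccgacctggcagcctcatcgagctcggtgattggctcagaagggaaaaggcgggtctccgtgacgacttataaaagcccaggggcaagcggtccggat
HSP90AA1: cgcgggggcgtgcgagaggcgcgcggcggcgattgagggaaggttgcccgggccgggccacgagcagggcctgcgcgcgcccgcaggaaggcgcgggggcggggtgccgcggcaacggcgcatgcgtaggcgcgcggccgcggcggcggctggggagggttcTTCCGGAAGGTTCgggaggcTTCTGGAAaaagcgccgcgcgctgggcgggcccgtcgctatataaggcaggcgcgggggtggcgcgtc
CHORDC1: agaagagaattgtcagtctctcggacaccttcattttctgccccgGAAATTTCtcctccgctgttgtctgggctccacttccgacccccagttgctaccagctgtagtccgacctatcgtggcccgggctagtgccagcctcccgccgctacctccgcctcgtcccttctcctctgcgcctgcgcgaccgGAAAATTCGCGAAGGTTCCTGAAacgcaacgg

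HSPA8, the constitutive cytosolic HSP70 and the most abundant transcript of the 41, had 2 elements of 3 units, printed without their surroundings because transcripts of the gene begin at several places around them. The distal one starts at position -230 from the RefSeq start (chr11:122933062-122933074, minus strand) and the proximal one at -55 (chr11:122932887-122932899).
HSPA8 distal element: GAAAGTTCCAGAA
HSPA8 proximal element: TTCTGGAAGGTTC

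Across all genes tested, 2336 of 13993 (16.7%) were altered, 1543 higher (11.0%) and 793 lower (5.67%) in the Ras-induced cells. Levels are FPKM, fragment counts scaled for transcript length and for the size of the library, and a gene is called altered where limma gave a Benjamini-Hochberg adjusted p of at most 0.05 on log2(FPKM + 1) over all genes whose mean reached 1 FPKM. The median log2 fold change over all tested genes was 0.10, and quantile normalization or upper-quartile scaling moved it to 0.0126 and 0.0047, with 1044 genes higher and 1109 lower under quantile normalization and 921 higher and 1101 lower under upper-quartile scaling. Relative depth, read from the steps between low values, ran from 0.849 to 1.172 of that of control library 1. HRAS, the gene of the transgene, had 1174, 1176 and 1140.3 FPKM in the control libraries and 1439, 1847 and 1473 FPKM in the Ras-induced libraries (log2 fold change 0.44 ± 0.11 SE, adjusted p = 0.0431, with a range of 0.0198 to 0.166 over 14 other settings), and leaving out any 1 library ended this call. Endogenous and transgene HRAS reads cannot be told apart in it. Of 7 fibroblast markers, COL1A2 and THY1 were called lower, beside 5.67% of all tested genes. COL1A1 and COL3A1 were lower in every Ras-induced library than in any control but missed the threshold in limma (adjusted p = 0.0501 and 0.0553). Upper-quartile scaling called both of them too, 4 of the 7 in all, beside 7.87% of all tested genes lower. The summed level of the 7 went from 5353 to 6263 FPKM in the controls to 3934 to 5285 FPKM with Ras. Of 6 markers of epithelial, blood and endothelial cells, PECAM1 was listed at 0 in all 6 libraries and PTPRC in 5, which in this table can also be a failed estimate, EPCAM, CDH1 and VWF had a highest value of 1.80 FPKM, and CD68, which is not restricted to blood cells, was at 25.2 to 35.6 FPKM. Mitotic transcripts were lower for 6 of 10 genes and S-phase transcripts for 3 of 9 tested, and the part of these shifts in the chaperone results was not tested.

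In mitotic cells with induced Ras, transcripts of the HSP70 gene HSPA8, 2 HSP110 genes, 2 J-domain partners, 2 HSP90 cochaperones and 3 mitochondrial chaperones were moderately higher, while 2 small heat-shock protein transcripts were lower. HSPH1, HSPE1, AHSA1 and HSPA4 rose by 0.57 to 0.69 on the log2 scale, HSPB6 fell by 1.13 and CRYAB fell by 1.42. The heat-shock factors, the inducible HSPA1A and HSPA1B, the HSP90 genes themselves and BAG3 were not altered. Of the 39 genes that passed the filter, 12 were altered (30.8%), 10 higher (25.6%) and 2 lower, beside 16.7% of all tested genes altered, 11.0% higher and 5.67% lower. HSPB2 and HSPB7 had means under 1 FPKM and were not tested. The median log2 fold change of the 39 was 0.28, against 0.10 for all tested genes, with 30 positive values, 9 negative values and 26 above the median of all tested genes. Under quantile normalization the median of the 39 was 0.19 and 9 genes were altered, 7 higher and 2 lower (all tested genes 15.4%, 7.46% and 7.93%). Under upper-quartile scaling it was 0.18 and 7 were altered, 5 higher and 2 lower (all tested genes 14.5%, 6.58% and 7.87%). In 18 of the 39 tested genes the 2 groups' values did not overlap, beside 39.9% of all tested genes (27.1% higher and 12.8% lower). In bulk RNA, fewer cells of a kind and less RNA per cell cannot be told apart.

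**Figure D1:**
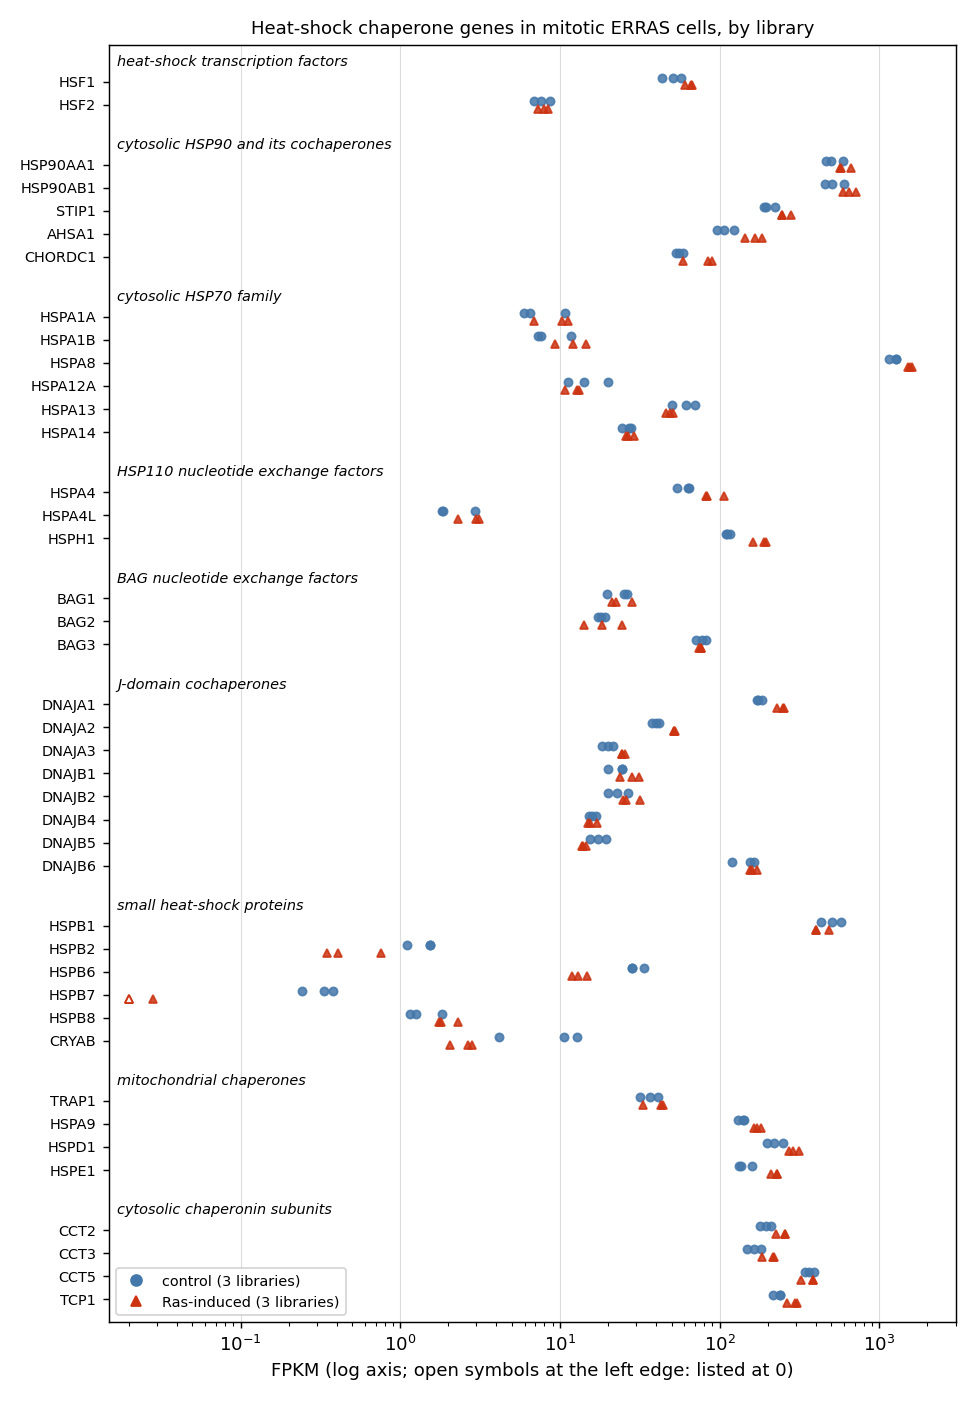
FPKM of each of the 41 genes in each library on a log axis, grouped by role, with circles for the 3 control and triangles for the 3 Ras-induced libraries. HSPA8 lies highest, at 1148 to 1602 FPKM, and HSPB7 lowest, with 2 Ras-induced libraries listed at 0.

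The number of altered genes depended on single libraries. It was 4 without Ras-induced library 1, 7 without Ras-induced library 2, 3 without Ras-induced library 3, 4 without control library 1, 4 without control library 2 and 9 without control library 3, while the calls over all tested genes also dropped in each of these fits, to between 860 and 1872. HSPH1, HSPE1 and HSPB6 were altered in the same direction under all 14 other settings of the fit. DNAJA1 and DNAJA2 were altered in 11 of the 14, AHSA1 in 8, CRYAB in 6, HSPA4, HSPD1 and STIP1 in 5 each, HSPA8 in 4 and HSPA9 in 3. Leaving out any 1 library ended the calls of HSPA4, HSPA8 and HSPA9, and those of STIP1, HSPD1 and CRYAB held only without control library 3. The AHSA1 call held only without Ras-induced library 2 or control library 2. DNAJA1 was lost without Ras-induced library 3, control library 1 or control library 2, and DNAJA2 without Ras-induced library 1, Ras-induced library 3 or control library 2. With a filter at a mean of 5 FPKM 15 of 37 were altered (21.4% of all tested genes) and 14 of 39 with a pseudocount of 0.1 (17.5%). Without a trend in the fit 7 of the 39 were altered (14.4% of all tested genes), with no filter 6 of 41 (5.17%), and 2 passed when the absolute log2 fold change also had to reach 1 (3.92%).

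**Figure D2:**
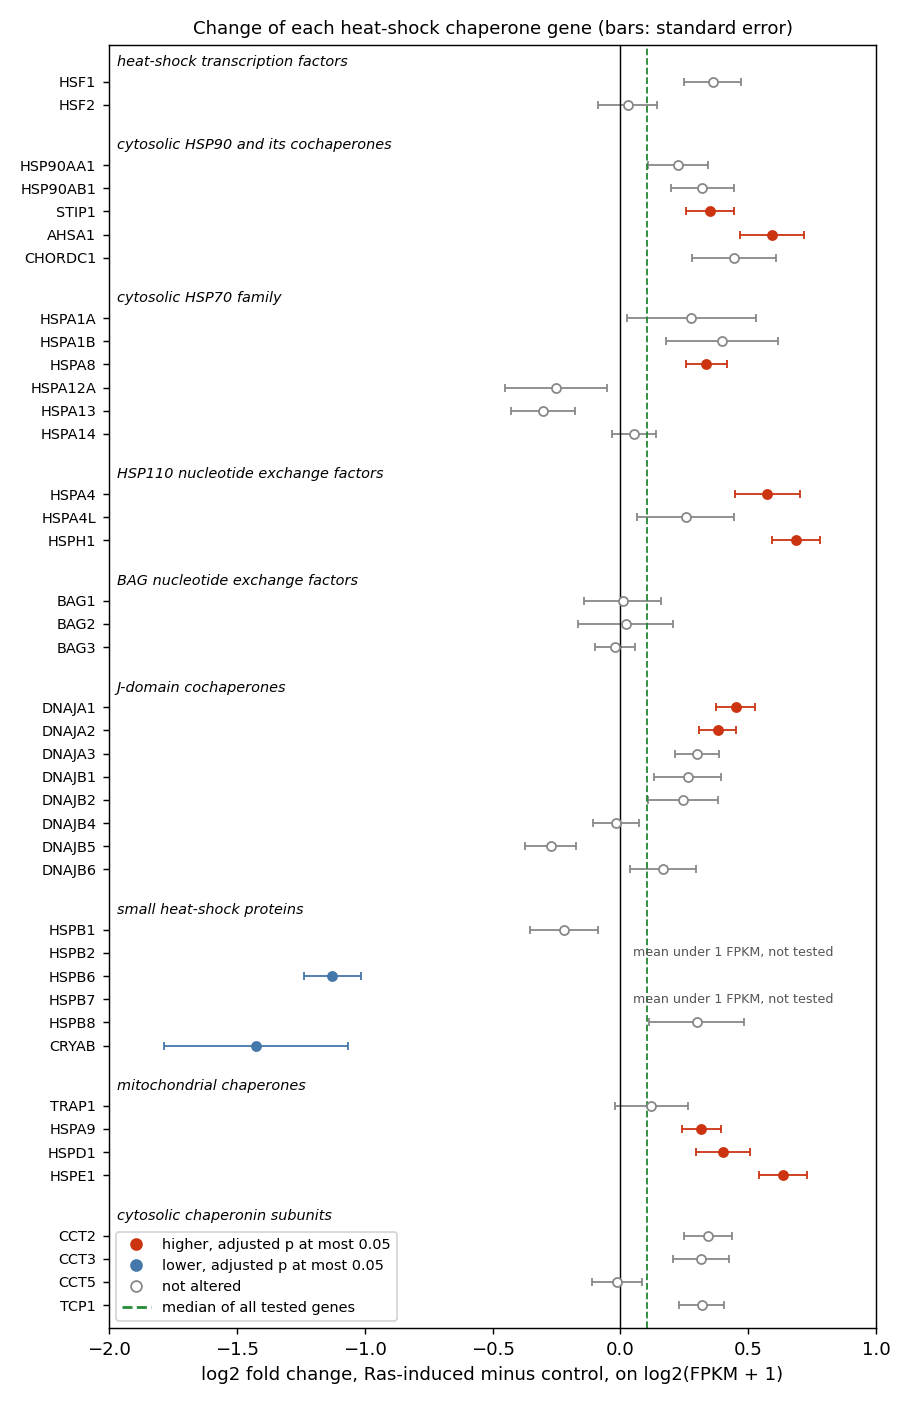
Log2 fold change of each tested gene, Ras-induced minus control on log2(FPKM + 1), with its standard error, grouped by role. The 10 filled red points lie between 0.32 and 0.69, the 2 filled blue points are HSPB6 and CRYAB, and the dashed line is the median of all tested genes at 0.10.

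The heat-shock factors were not altered. HSF1 (chr8:145515273-145538383), the main activator of the heat-shock response, had 50.7, 57.0 and 43.8 FPKM in the control libraries and 60.7, 67.4 and 66.4 FPKM in the Ras-induced libraries. Every Ras-induced value was above every control value, but the log2 fold change of 0.36 ± 0.11 (SE) missed the threshold in limma (adjusted p = 0.0698). HSF2, a second factor with roles in development and stress, had 6.88, 7.64 and 8.65 FPKM in controls and 7.92, 7.27 and 8.45 FPKM with Ras, and the groups overlapped (0.03 ± 0.11, adjusted p = 0.887, with a negative sign under quantile normalization and upper-quartile scaling). Neither gene passed in limma, and at an unadjusted p under 0.05 the count was 1 of 2, HSF1, beside 33.6% of all tested genes in either direction and 22.9% higher. These are transcript levels, and HSF1 is known to be controlled largely by modification and localization of the protein.

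Among the cytosolic HSP90 genes and their cochaperones, 2 of 5 rose (beside 11.0% of all tested genes higher) and the 2 HSP90 genes themselves did not pass. AHSA1 (chr14:77924213-77935815), which stimulates the ATPase of HSP90, had 107, 123 and 96.8 FPKM in controls and 167, 144 and 183 FPKM with Ras. The groups were apart, and the log2 fold change was 0.59 ± 0.12 (SE, adjusted p = 0.0243). STIP1 (chr11:63952744-63972015), the adaptor that passes clients from HSP70 to HSP90, had 196, 189 and 222 FPKM in controls and 247, 247 and 281 FPKM with Ras. Its groups were apart too, with a smaller log2 fold change of 0.35 ± 0.09 (adjusted p = 0.0494), and the call was lost under both other scalings.

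HSP90AA1, the stress-inducible isoform, had 465, 497 and 589.7 FPKM in controls and 565, 575 and 668 FPKM with Ras, and the groups overlapped (log2 fold change 0.22 ± 0.12, adjusted p = 0.233). HSP90AB1, the constitutive isoform, had 459, 509 and 599 FPKM in controls and 589.9, 646 and 717 FPKM with Ras, with overlap at 1 library of each group (0.32 ± 0.12, adjusted p = 0.126). Both isoforms were thus abundant in both groups, and control library 3 had the highest control value of each. The ratio of HSP90AA1 to HSP90AB1 within a library was 1.01, 0.978 and 0.984 in controls and 0.958, 0.891 and 0.932 with Ras. These ratios did not overlap, and an exact two-sided permutation test on 3 against 3 libraries cannot give a p below 0.1. Stretches of both genes recur in other annotated transcripts, mainly pseudogenes: 6.11% of the windows of 75 bases in HSP90AA1 and 5.35% in HSP90AB1. CHORDC1 had 53.1, 55.9 and 59.1 FPKM in controls and 84.6, 58.7 and 90.1 FPKM with Ras. Ras-induced library 2 lay within the control range and the other Ras-induced libraries lay well above it, and the log2 fold change of 0.44 ± 0.16 was not significant (adjusted p = 0.112); without that library CHORDC1 was called higher.

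In the HSP70 family, 1 of 6 genes rose (16.7%), beside 11.0% of all tested genes higher, so the count is near the background. HSPA8 (chr11:122928197-122933938) had 1148, 1275 and 1279 FPKM in controls and 1512, 1554 and 1602 FPKM with Ras. The groups were apart by more than the range within either, and the log2 fold change was 0.34 ± 0.08 (adjusted p = 0.0344), though under upper-quartile scaling it was 0.23 and was no longer called. HSPA8 alone gave most of the family's summed level, which was 1270.4 to 1406 FPKM in controls and 1622 to 1719 FPKM with Ras.

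The stress-inducible HSP70 genes stood far lower and were not altered. HSPA1A had 10.7, 6.48 and 5.94 FPKM in controls and 10.3, 6.84 and 11.2 FPKM with Ras (log2 fold change 0.28 ± 0.25, adjusted p = 0.476). HSPA1B had 11.8, 7.58 and 7.29 FPKM in controls and 12.0, 9.30 and 14.5 FPKM with Ras (0.40 ± 0.22, adjusted p = 0.254). The groups overlapped for both, and control library 1 had the highest control value of each. The 2 genes lie 12195 bp apart on chromosome 6 and share 73.8% and 73.3% of their windows of 75 bases, so how reads were split between them is uncertain. Together they came to 0.0098, 0.0055 and 0.0052 of the HSPA8 level in controls and 0.0074, 0.0052 and 0.0080 with Ras. HSPA6, the strictly stress-induced HSP70 that is not among the 41, was at no more than 0.130 FPKM in any library. Of the remaining members, HSPA13, a microsomal HSP70, had a log2 fold change of -0.30 (adjusted p = 0.146), HSPA12A one of -0.25 (adjusted p = 0.412) and HSPA14, a ribosome-associated HSP70, one of 0.05 (adjusted p = 0.700, negative under both other scalings), and all 3 had overlapping groups.

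Of the nucleotide exchange factors of the HSP110 family, 2 of 3 rose (66.7%, beside 11.0% of all tested genes higher), and of the BAG family none was altered. HSPH1 (chr13:31709110-31736525) had 112, 109.5 and 117 FPKM in controls and 196, 161 and 191 FPKM with Ras. The lowest Ras-induced value stood well above the highest control, and the level was 1.62-fold higher (113 ± 3.81 against 183 ± 19.0 FPKM, mean ± SD, n = 3). The log2 fold change was 0.69 ± 0.09 (SE, adjusted p = 0.00725). HSPA4 (chr5:132387705-132442141) had 54.0, 64.1 and 63.7 FPKM in controls and 83.6, 82.8 and 107 FPKM with Ras, without overlap (0.57 ± 0.13, adjusted p = 0.0293), and the call was lost under quantile normalization and upper-quartile scaling. HSPA4L was low, at 1.84 to 2.93 FPKM in controls and 2.30 to 3.12 FPKM with Ras, and its groups overlapped.

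Relative to HSPA8, the HSP70 they act on, HSPH1 transcripts stood at 0.0973, 0.0859 and 0.0915 in controls and 0.130, 0.104 and 0.119 with Ras. All Ras-induced ratios were above all control ratios, and the smallest p an exact permutation test allows here is 0.1. BAG3, a stress-induced exchange factor of protein quality control and selective autophagy, had 82.0, 77.9 and 70.8 FPKM in controls and 76.3, 74.2 and 76.4 FPKM with Ras (log2 fold change -0.02 ± 0.08, adjusted p = 0.884). The 3 Ras-induced values lay inside the control range. BAG1 and BAG2 had log2 fold changes of 0.01 and 0.02, which were negative under quantile normalization and upper-quartile scaling. In limma, 0 of the 3 BAG genes were called and 0 had an unadjusted p under 0.05, beside 33.6% of all tested genes.

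The J-domain cochaperones, which select clients for HSP70, rose in 2 of 8 genes (25.0%), beside 11.0% of all tested genes higher. DNAJA1 (chr9:33025271-33039905) had 172, 175 and 185 FPKM in controls and 248, 227 and 255 FPKM with Ras (log2 fold change 0.45 ± 0.08, adjusted p = 0.0125). DNAJA2 (chr16:46989274-47007585) had 41.8, 40.1 and 37.5 FPKM in controls and 52.0, 51.8 and 52.3 FPKM with Ras (0.38 ± 0.07, adjusted p = 0.0183). Both are class A J-domain proteins of the cytosol, both had groups that were apart, and both calls held under quantile normalization and upper-quartile scaling. DNAJA3, the mitochondrial class A member, had 18.2, 20.1 and 21.5 FPKM in controls and 24.4, 25.4 and 24.4 FPKM with Ras. Its groups did not overlap either, with a log2 fold change of 0.30 ± 0.09 that missed the threshold (adjusted p = 0.0590), and it was called higher with a filter at a mean of 5 FPKM and without control library 3.

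The class B members did not pass. DNAJB1, the main stress-inducible J-domain protein, had 24.5, 24.3 and 19.9 FPKM in controls and 28.3, 23.7 and 31.2 FPKM with Ras (log2 fold change 0.26 ± 0.13, adjusted p = 0.214). Ras-induced library 2 lay within the control range. DNAJB5 had 15.4, 19.3 and 17.2 FPKM in controls and 14.7, 13.9 and 13.8 FPKM with Ras, all lower than the controls, with a log2 fold change of -0.27 (adjusted p = 0.114). DNAJB2, DNAJB4 and DNAJB6 had overlapping groups and log2 fold changes of 0.24, -0.02 and 0.17.

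Of the 4 small heat-shock protein genes tested, 2 fell and none rose, beside 5.67% of all tested genes lower. HSPB6 (chr19:36245467-36248980), a muscle-enriched member, had 28.2, 33.5 and 28.2 FPKM in controls and 14.7, 12.9 and 11.9 FPKM with Ras. The groups were far apart, the Ras-induced mean was 0.440 of the control mean (30.0 ± 3.06 against 13.2 ± 1.38 FPKM, mean ± SD, n = 3), and the log2 fold change was -1.13 ± 0.11 (SE, adjusted p = 0.00296). CRYAB (chr11:111779288-111794446), αB-crystallin, had 12.8, 10.6 and 4.16 FPKM in controls and 2.64, 2.06 and 2.83 FPKM with Ras. All Ras-induced values were below all control values, but control library 3 was closer to them than to the other controls. The log2 fold change was -1.42 ± 0.36 (adjusted p = 0.0421), and the call was lost on leaving out any library except control library 3 (range 0.0108 to 0.148 over the 14 other settings).

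Another pair of members of the family were below the filter, with values that did not overlap either. HSPB2 had 1.54, 1.52 and 1.10 FPKM in controls and 0.758, 0.407 and 0.350 FPKM with Ras. HSPB7, a cardiac and muscle member, had 0.382, 0.334 and 0.244 FPKM in controls and 0.0281 FPKM in Ras-induced library 1. It was listed at 0 in Ras-induced libraries 2 and 3, which in this table can also be a failed estimate. With no filter on low values, HSPB7 was called lower and HSPB2 was not. HSPB2 lies within the bounds of CRYAB on the opposite strand, the library kit does not mark strand, and 84.1% of the windows of 75 bases of HSPB2 also occur in the HSPB2-C11orf52 readthrough gene, so its level is uncertain.

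HSPB1 (HSP27) and HSPB8 were not altered. HSPB1, by far the most abundant small heat-shock protein transcript, had 504, 574 and 429 FPKM in controls and 403, 485 and 401 FPKM with Ras, and the groups overlapped (log2 fold change -0.22 ± 0.13, adjusted p = 0.295). HSPB8, the partner of BAG3, had 1.82, 1.16 and 1.25 FPKM in controls and 2.31, 1.74 and 1.81 FPKM with Ras (0.30 ± 0.19, adjusted p = 0.307). Set against HSPB1 in the same library, HSPB6 was at 0.0559, 0.0584 and 0.0658 in controls and at 0.0364, 0.0267 and 0.0298 with Ras. CRYAB set against HSPB1 went from 0.0254, 0.0184 and 0.0097 to 0.0065, 0.0042 and 0.0071. Both ratios were lower in every Ras-induced library than in any control. The summed level of the 6 genes followed HSPB1 and overlapped between the groups, at 463 to 621 FPKM in controls and 418 to 502 FPKM with Ras.

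**Figure D3:**
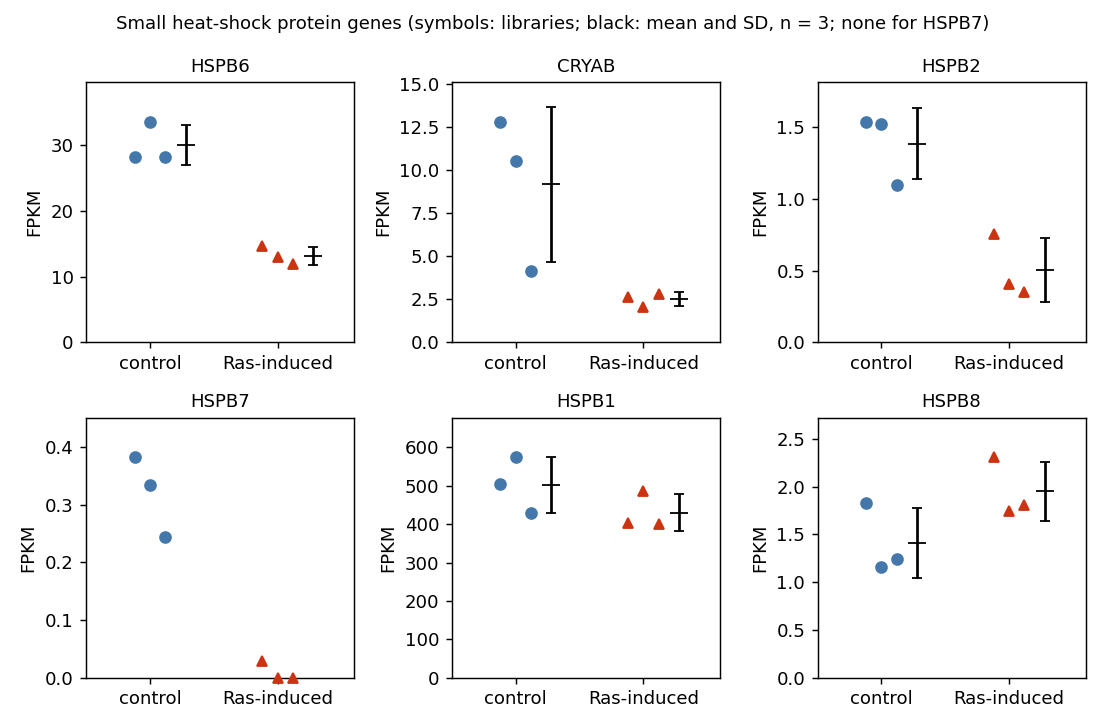
FPKM of the 6 small heat-shock protein genes in each library, with the mean and SD (n = 3) except for HSPB7, which has values listed at 0; each panel has its own linear axis from 0. HSPB6, CRYAB, HSPB2 and HSPB7 are lower in every Ras-induced library than in any control, and HSPB1 and HSPB8 overlap.

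In the mitochondrial set, 3 of 4 genes rose, beside 11.0% of all tested genes higher, and under quantile normalization or upper-quartile scaling 1 of 4 did, beside 7.46% and 6.58%. HSPE1 (chr2:198364864-198368173), the lid HSP10 of the mitochondrial chaperonin, had 136, 159 and 133 FPKM in controls and 209, 229 and 227 FPKM with Ras, a 1.55-fold difference (log2 fold change 0.64 ± 0.09, adjusted p = 0.00898). HSPD1 (chr2:198351308-198381461), the barrel HSP60 that HSPE1 caps, had 198, 219 and 248 FPKM in controls and 273, 288 and 316 FPKM with Ras (0.40 ± 0.11, adjusted p = 0.0469). HSPA9 (chr5:137889445-137911364), the mitochondrial HSP70 mortalin, had 143, 131 and 141 FPKM in controls and 164, 170.2 and 182 FPKM with Ras (0.32 ± 0.08, adjusted p = 0.0358). The groups were apart for all 3, and only the HSPE1 call held under quantile normalization and upper-quartile scaling. TRAP1, the mitochondrial HSP90, had 31.9, 36.7 and 41.1 FPKM in controls and 33.2, 43.9 and 42.9 FPKM with Ras, which overlapped (0.12 ± 0.14, adjusted p = 0.586).

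HSPD1 and HSPE1 are transcribed away from each other, and their nearest RefSeq starts are 105 bp apart on chromosome 2 (198364998 on the minus strand for HSPD1 and 198365103 on the plus strand for HSPE1). HSPE1 shared 31.0% of its windows of 75 bases with other genes, mostly with the HSPE1-MOB4 readthrough, and HSPD1 shared 9.73%, mostly with a pseudogene. HSPE1 also lies within the bounds of HSPD1 on the opposite strand, and the library kit does not mark strand. The shares do not count overlap between strands, so both levels are uncertain to at least that extent. The ratio of HSPE1 to HSPD1 was 0.688, 0.729 and 0.535 in controls and 0.764, 0.795 and 0.720 with Ras. These ratios overlapped, so a difference in the size of the rise between lid and barrel was not shown.

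None of the 4 chaperonin subunits among the 41 was called, and 3 of them had positive log2 fold changes of 0.32 to 0.34 with an unadjusted p under 0.05 in limma, beside 22.9% of all tested genes higher at that threshold. TCP1, the subunit CCT1, had 238, 240.0 and 217 FPKM in controls and 264, 305 and 298 FPKM with Ras (0.32 ± 0.09, adjusted p = 0.0518). CCT2 had 179, 194 and 208 FPKM in controls and 224, 258 and 257 FPKM with Ras (0.34 ± 0.09, adjusted p = 0.0513), and CCT3 had 149, 164 and 183 FPKM against 184, 216 and 218 FPKM (0.32 ± 0.11, adjusted p = 0.0931). In these 3 genes the groups did not overlap, although for CCT3 they were less than 2 FPKM apart. TCP1 was called higher under quantile normalization, with a filter at a mean of 5 FPKM and with a pseudocount of 0.1, and CCT2 under the last 2 of these. CCT5 had 344, 361 and 392 FPKM in controls and 322, 385 and 383 FPKM with Ras, which overlapped (-0.01 ± 0.10, adjusted p = 0.940).

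The chaperonin is a double ring of 8 different subunits, and the other subunits CCT4, CCT6A, CCT7 and CCT8 had log2 fold changes of 0.28 to 0.42, of which CCT4 (adjusted p = 0.0276) and CCT6A (adjusted p = 0.0482) passed. The CCT6A call was lost under quantile normalization and upper-quartile scaling, and the CCT4 call under upper-quartile scaling. The ratio of CCT5 to the mean of the other 7 subunits was 1.92, 1.91 and 2.04 in controls and 1.51, 1.57 and 1.56 with Ras. The ratios were apart, with means of 1.96 ± 0.08 and 1.55 ± 0.04 (SD, n = 3), and 0.1 is the smallest p that an exact two-sided permutation test allows with 3 against 3. CCT5 was singled out after its values had been seen. The ratio is taken within each library, so a common scaling factor does not change it.

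**Figure D4:**
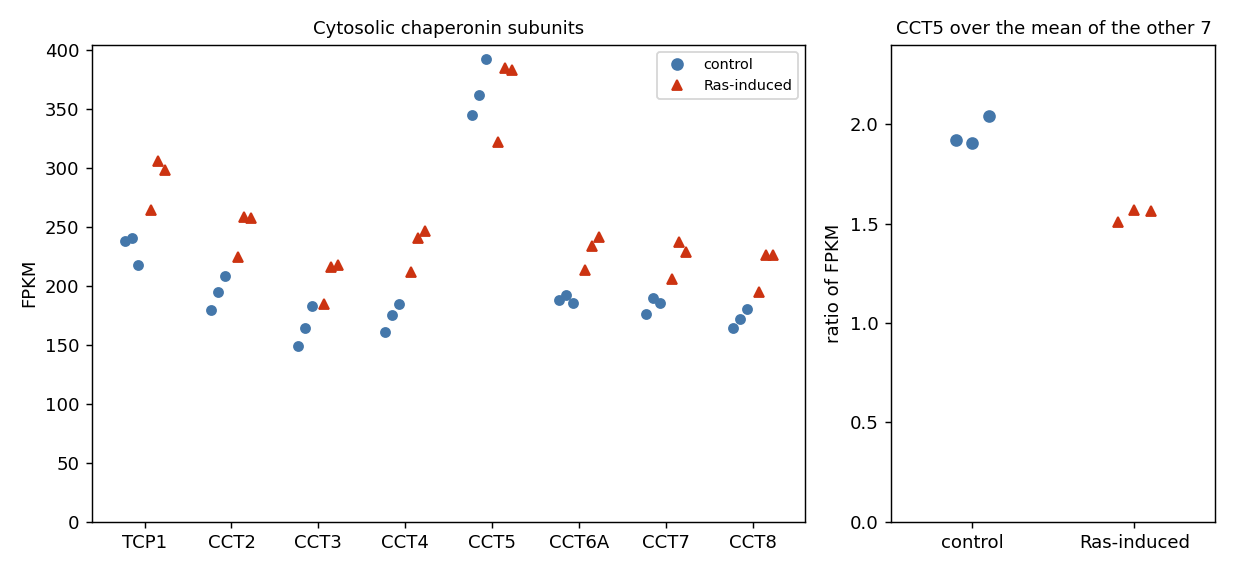
Left, FPKM of the 8 chaperonin subunits in each library on a linear axis from 0, with circles for control and triangles for Ras-induced libraries. Right, the ratio of CCT5 to the mean of the other 7 in each library, which is 1.91 to 2.04 in controls and 1.51 to 1.57 with Ras.

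Added over all 41 genes, the level was 5346, 5718 and 5778 FPKM in the control libraries and 6427, 6701 and 7073 FPKM in the Ras-induced libraries, 1.20-fold higher, with no overlap. A few abundant genes make up most of this sum, and the sums by role went in different directions. The HSP110 genes had the largest ratio of means, 1.58, followed by the mitochondrial chaperones at 1.35, while the BAG genes were at 0.997 and the small heat-shock proteins at 0.823, both with overlapping groups.

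Of the 10 higher genes, all in the promoter table, 5 (50.0%) had an element of 2 units in at least 1 promoter, beside 14 of the 25 not altered (56.0%) and 16.2% of all genes in the table. An element of 3 units was in 3 of the 10 higher genes (30.0%; DNAJA1, HSPA8 and HSPD1) and in 4 of the 25 not altered (16.0%; CHORDC1, DNAJB6, HSP90AA1 and HSP90AB1), beside 0.608% of all genes. The difference between higher and not altered genes was not tested. HSPH1 and HSPE1, the genes that rose most, held none in these windows, while HSPB6, which fell, held 2 elements of 2 units. The elements of HSPD1 lie in the stretch chr2:198364565-198364814, which ends just short of the HSPE1 window that begins at 198364853. A match is a description of letters in a window of 300 bases and not evidence that HSF1 binds there, and no match says nothing of elements elsewhere.

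The other cytosolic and mitochondrial chaperone genes were read from a separate list of 52 symbols, of which 47 were tested. Among these, 13 rose (27.7%) and none fell, beside 11.0% of all tested genes higher. The median log2 fold change of the 47 was 0.27, and it was 0.21 under quantile normalization and 0.17 under upper-quartile scaling. The largest rises were those of PFDN2, a subunit of the prefoldin complex that hands clients to the chaperonin (108, 109 and 86.8 FPKM in controls, 165, 178 and 176 FPKM with Ras, log2 fold change 0.77 ± 0.11, adjusted p = 0.00715), FKBP4 and GRPEL1. FKBP4, an immunophilin cochaperone of HSP90, had 41.9, 45.8 and 49.3 FPKM in controls and 71.1, 64.3 and 87.7 FPKM with Ras (0.68 ± 0.13, adjusted p = 0.0177). GRPEL1, the nucleotide exchange factor of HSPA9, had 31.3, 31.0 and 29.2 FPKM in controls and 47.7, 40.9 and 48.6 FPKM with Ras (0.57 ± 0.09, adjusted p = 0.0114). In all 3 genes every Ras-induced value was above every control value. Under quantile normalization 8 of the 47 rose and under upper-quartile scaling 6 did, beside 7.46% and 6.58% of all tested genes higher under the same scalings. The count was 10 without Ras-induced library 1, 7 without Ras-induced library 2 and 3 without Ras-induced library 3. It was 5 without control library 1, 5 without control library 2 and 8 without control library 3. Calls over all tested genes also dropped in these fits, to between 860 and 1872. PFDN2 was altered under all 14 other settings, GRPEL1 was lost without Ras-induced library 3, and FKBP4 was lost without Ras-induced library 1, control library 1 or control library 2. HSPA6, HSF4, HSPB3, CCT6B and DNAJC7 had means under 1 FPKM in the rows used, and the main row of DNAJC7 could not be read because it held more than 6 values.

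Chaperones of the endoplasmic reticulum, a separate compartment with its own stress response, were read for comparison. Of 18 genes, 2 rose (11.1%) and none fell, beside 11.0% of all tested genes higher. Their median log2 fold change was 0.04, beside 0.28 for the 39 heat-shock chaperone genes. It was -0.03 under quantile normalization and -0.07 under upper-quartile scaling, beside 0.19 and 0.18 for the 39. The counts also depended on the scaling. Under quantile normalization MANF was higher and CANX and SERPINH1 were lower, beside 7.46% of all tested genes higher and 7.93% lower. With upper-quartile scaling none was higher and CANX and SERPINH1 were lower, beside 6.58% of all tested genes higher and 7.87% lower. SDF2L1 had 42.6, 40.1 and 36.0 FPKM in controls and 52.5, 67.9 and 50.6 FPKM with Ras (0.51 ± 0.13, adjusted p = 0.0452). MANF had 139, 135 and 143 FPKM in controls and 172, 191 and 198 FPKM with Ras (0.42 ± 0.08, adjusted p = 0.0169). The groups were apart for both, and the SDF2L1 call was lost under both other scalings and the MANF call under upper-quartile scaling. Leaving out any 1 library ended the SDF2L1 call, and the MANF call was lost without Ras-induced library 3, control library 1 or control library 2. A difference between the lists was not tested.

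**Figure D5:**
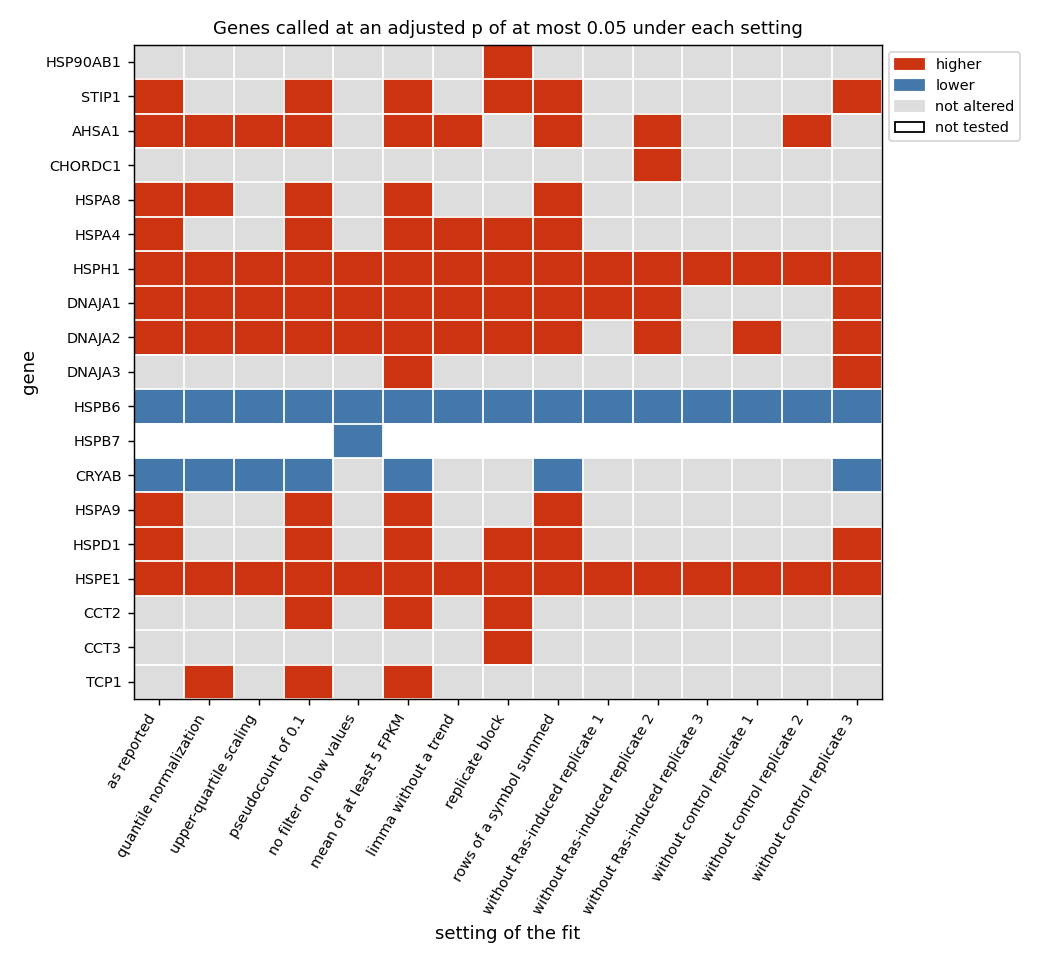
Genes of the 41 called at an adjusted p of at most 0.05 in at least 1 setting of the fit (19 genes, rows) under each of 15 settings (columns, the first as reported), with red for higher, blue for lower, grey for not altered and white for not tested. HSPH1, HSPE1 and HSPB6 are called in every column, and most other rows are broken where 1 library is left out.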

How the data were processed

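RNA was sequenced from 6 libraries of mitotic IMR90 ERRAS cells, 3 uninduced and 3 Ras-induced. Per the labels, poly(A) libraries were sequenced as paired-end reads on a NextSeq500, and the submitters' processing notes name Trim Galore 0.3.0, TopHat2, Cufflinks and Cuffdiff with hg19 (GRCh37). The authors deposited 1 table of FPKM per gene and library, in which values are already scaled for transcript length and library size, so absolute depth is unknown and only relative depth was read from the steps between low values. Deposited columns of the authors' own group comparison (fold changes and p-values) were not used, nor were 18 unnamed columns. Of 63129 genes listed, 120 rows with more than 6 values were left out, because their values could not be assigned to libraries.

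Values were tested as log2(FPKM + 1), which understates the change of low genes, with limma 3.58.1 (lmFit, then eBayes with its trend option, two-sided) in R 4.3.3, over the 13993 genes whose mean reached 1 FPKM. Benjamini-Hochberg adjustment ran over all of them, and genes were called at an adjusted p of at most 0.05. The fit was tested on simulated data. Columns name the group and a number but not the sample, and p-values measure the spread between these 3 libraries per group. Alternatives were quantile normalization, upper-quartile scaling, a pseudocount of 0.1, no filter, a filter at a mean of 5 FPKM, no trend, the column number as a block, summed rows of a symbol, leaving out each library, and a call that also required a 1 log2 unit change. Values in every library are given for altered members and for a fixed list of 16 members, and for the 3 largest rises and falls among altered genes of the other lists. Further members are named with values after these were seen. The members, the lists and this rule were chosen with earlier results of these data known. Gene bounds came from GENCODE 44 lifted to GRCh37, promoters from RefSeq, and shared windows of 75 bases from comparing GENCODE transcripts.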

Additional observations from a re-analysis of the deposited data

How the results depend on the processing

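The 12 altered heat-shock chaperone genes became 7 (6 higher, 1 lower) with limma without a trend, 6 with no filter on low values, 7 with upper-quartile scaling and 2 (HSPB6 and CRYAB) when a change of 1 log2 unit in either direction was demanded too, and ranged from 3 to 9 with 1 library left out. They became 15 of 37 (13 higher, 2 lower) with a filter at a mean of 5 FPKM and 14 of 39 (12 higher, 2 lower) with a pseudocount of 0.1. Their median log2 fold change was 0.19 under quantile normalization and 0.18 under upper-quartile scaling. All altered genes came to 548 with the fold requirement, 1518 with no filter, and 860 to 1872 with 1 library left out. The other cytosolic and mitochondrial chaperone list had 7 altered with no filter, 8 with quantile normalization, 6 with upper-quartile scaling and 3 to 10 with 1 library left out. The endoplasmic reticulum list had 1 higher and 2 lower (CANX and SERPINH1) with quantile normalization, 0 higher and the same 2 lower with upper-quartile scaling, 2 higher and 1 lower (SERPINH1) with the replicate block, 1 altered without a trend, 1 with no filter and 0 to 2 with 1 library left out. Signs changed for some genes that were not altered. Both scalings turned HSPA14 (0.05 to -0.05 in each), BAG1 (0.01 to -0.10 in each), BAG2 (0.02 to -0.08 in each) and HSF2 (-0.0595 with quantile normalization, -0.0696 with upper-quartile scaling, -0.0173 without Ras-induced library 3, -0.0424 without control library 1, and up to 0.1036 without another library), and leaving out 1 library turned BAG3 (0.0268 without control library 1 and down to -0.0773 without another). The fits with a library left out have fewer samples and those with no filter test 29362 genes; for the other changes the cause was not tested. With the column number as a replicate block, 11 of the heat-shock chaperone genes were altered (10 higher, 1 lower), 8 of them also altered without it, and 2310 of all genes; HSP90AB1, CCT2 and CCT3 were gained and AHSA1, HSPA8, HSPA9 and CRYAB were lost. Deviations of same-numbered libraries correlated at -0.003, 0.043 and 0.048, so the numbers were not taken to pair the libraries, and not every library correlated best with its own number.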
